A study of Mus musculus with 6 samples.

Results

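The 9 genes described here are long noncoding RNAs of neurons and of the nucleus: 1700020I14Rik, Malat1, Neat1, Miat, Snhg11, Rmst, Pantr1, Sox2ot and Dlx6os1. They were taken by gene symbol from the 55357 genes counted in each of 6 RNA-seq libraries, and each symbol matched 1 gene. All 9 passed a filter of at least 6 reads in at least 1 library, which left 21876 genes for the test across all genes. The members were chosen by symbol with their CPM and fold changes between these same libraries known, so their levels and differences are given as a description with standard errors and without a test.

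The libraries were poly(A) RNA from wild type mouse primary cultures of cortical and hippocampal neurons, prepared from E18 C57BL/6N embryos. The cultures received lentivirus at DIV4 (day in vitro 4) and were collected at DIV14. In 3 libraries (shCtrl) the virus carried a control or scrambled short hairpin RNA, and in the other 3 (shPla2g4e) it carried a hairpin against Pla2g4e, the gene of a calcium-dependent N-acyltransferase that makes N-acyl phosphatidylethanolamines. Both groups were therefore transduced, with the pLVTHM vector and the same amount of virus. A single hairpin sequence, sh2, was used, its dose was set to lower the Pla2g4e transcript only in part, and the cultures are mixtures of cell types. The labels do not say whether the libraries of a group came from separate cultures, so the errors and p-values below measure the spread between these libraries only.

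Long noncoding RNAs are transcripts without a known protein product, many of which stay in the nucleus. Malat1 lies in nuclear speckles, where splicing factors gather, and Neat1 is the scaffold around which paraspeckles form. Others, such as Sox2ot, Pantr1 and Dlx6os1, are transcribed beside or across genes of developmental transcription factors, and 1700020I14Rik, listed by RefSeq under the synonym Oip5os1 and also known as Cyrano, is known for a site that pairs with the microRNA miR-7 and leads to its decay.

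The sequences that bear on these genes are the sh2 hairpin, the letters in the members that pair with the guide's seed, and the elements by which 3 members are best known. The sh2 strands come from the oligonucleotide table of the study. Capitals mark the seed of the guide (bases 2 to 8) and, in the target, the 7 letters that pair with it.
sh2 target: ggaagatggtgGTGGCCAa
sh2 guide: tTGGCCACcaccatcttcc
The 7 letters GTGGCCA, searched on the sense strand of the longest GENCODE vM21 transcript of each gene, occurred 4 times in 1700020I14Rik, in exon 3, and these are shown because no other member held more than 2. Their windows lie on the plus strand of GRCm38 at chr2:119602654-119602682, chr2:119604079-119604107, chr2:119604192-119604220 and chr2:119604890-119604918, in this order.
1700020I14Rik copy 1: atgtttactctGTGGCCAtttcctttcct
1700020I14Rik copy 2: gtgataagcttGTGGCCAgtgttcgaatc
1700020I14Rik copy 3: cctcatggcatGTGGCCActtagcacctt
1700020I14Rik copy 4: gctctcagtaaGTGGCCAagaaaacttgc
Miat held 2 copies, Neat1, Snhg11 and Dlx6os1 1 each, and the longest transcripts of Malat1, Rmst, Pantr1 and Sox2ot none. In Sox2ot, 7 of the 18 annotated transcripts held it.

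A match of 7 letters is common. It occurred in 14.8% of the 4349 other long noncoding genes tested and in 47.5% of the 139 with a transcript of at least 5000 bases. Only 3 of the 4349 (0.069%) held it at least 4 times, namely Gm44986, Kcnq1ot1 and Gm16133, which were chosen for naming after their values were seen. None of the 3 was called in the knockdown: their log2 fold changes were -0.02 (SE 0.287) for Gm44986, 0.12 (SE 0.101) for Kcnq1ot1 and 0.50 (SE 0.959) for Gm16133, with adjusted p of 0.978, 0.514 and 0.81 by edgeR's quasi-likelihood test with Benjamini-Hochberg adjustment. These 3 differ from 1700020I14Rik in level or length: Gm16133 and Gm44986 stood at only 0.1789 and 2.014 CPM in shCtrl, and Kcnq1ot1 has its 6 copies in 93092 bases, against 4 copies in 8300 bases. Over all 84 other long noncoding genes with 2 or more copies, edgeR called 0, limma after voom 0 and DESeq2 0, and 4 were lower and 4 higher at an unadjusted p under 0.05. With the library number as a block 3 of the 84 (3.57%) were called, all higher. Of all 4349, 184 (4.23%) were called with the block, 149 of them higher. The mean log2 CPM reached 3 in 13 of these 84, and of all 4349 other long noncoding genes 1.61% were called. Whether the guide acts on any of these transcripts was not tested. The longest uninterrupted match of any member to the 19 bases of the sh2 target was 11 bases, in Snhg11, against 9 bases in 1700020I14Rik.

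The element for which 1700020I14Rik is best known was also found, in a search made after its values were known. Capitals mark the seed of the microRNA, from RefSeq, and the letters of the transcript that pair with it, at chr2:119602132-119602161 on the plus strand of GRCm38.
mmu-miR-7a-5p: uGGAAGACuagugauuuuguugu
1700020I14Rik: taagaacaacaaaatcaccaatGTCTTCCa
The seed match lies at bases 2952 to 2958 of the 8300-base transcript, and upstream of it 13 further bases in a row pair with the rest of the microRNA. A second seed match, at bases 762 to 768, had an upstream match of only 3 bases. The seed match alone occurred in 16.9% of the 4349 other tested long noncoding genes, but 0 of them had an upstream match as long. Mature microRNAs are not captured in these libraries.

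Malat1 ends in a known structure rather than a regular poly(A) tail: T-rich stretches (written as DNA) fold onto an encoded A-rich stretch. The window around its longest run of A, in capitals, is at chr19:5795928-5796059 on the minus strand of GRCm38.
Malat1: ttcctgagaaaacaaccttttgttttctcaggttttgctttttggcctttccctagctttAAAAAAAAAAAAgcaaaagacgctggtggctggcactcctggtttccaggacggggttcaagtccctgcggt
The run of 12 A lies 298 bases before the annotated end, and 9.15% of the 4349 other genes held a run at least as long. In Miat, capitals mark 3 of 6 copies of TACTAAC, a repeat that splicing regulators are known to bind, within 60 bases at chr5:112216762-112216821 on the minus strand of GRCm38.
Miat: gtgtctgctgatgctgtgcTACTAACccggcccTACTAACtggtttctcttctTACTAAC
TACTAAC, searched on the sense strand, occurred in 6.25% of the 4349 other genes, and 1 of them held it as often as Miat.

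The targeted gene fell. Pla2g4e stood at 36.15 ± 1.6 CPM (counts scaled to library size by edgeR's TMM method; SD, n = 3) in shCtrl and 18.24 ± 3.87 in shPla2g4e (log2 fold change -0.99, SE 0.131, adjusted p = 0.000124 by edgeR). The libraries held 17054717 to 23570180 counted reads, of which the 9 members took 0.391% to 0.47%.

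1700020I14Rik was lower in shPla2g4e by the most. It stood at 607, 573.9 and 518.2 CPM in shCtrl libraries 1, 2 and 3 and at 188.4, 170.9 and 188.8 CPM in shPla2g4e libraries 1, 2 and 3. The groups lay far apart, and each was tight: 566.4 ± 44.9 CPM (SD, n = 3) against 182.7 ± 10.2 CPM. The shPla2g4e mean was 32.3% of the shCtrl mean, a log2 fold change of -1.63 (SE 0.086). The log2 ratios of libraries with the same number were -1.69, -1.75 and -1.46. Among 216 long noncoding genes (members included) whose mean log2 CPM was 3 or more, it had the lowest fold change, and in shCtrl it ranked 6 of 4358 by CPM. The gene lies on chromosome 2 at 119424778 to 119437983 (GRCm39, plus strand), with 8306 exon bases in 3 blocks, none of them shared with another gene on either strand. Pla2g4e lies on the same chromosome, 559 kb away. The tested protein-coding genes on either side, Chp1 and Oip5, were not called (log2 fold changes -0.04, SE 0.0811, and -0.04, SE 0.431). Oip5 stood at only 1.48 CPM in shCtrl, so its value says little.

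**Figure D1:**
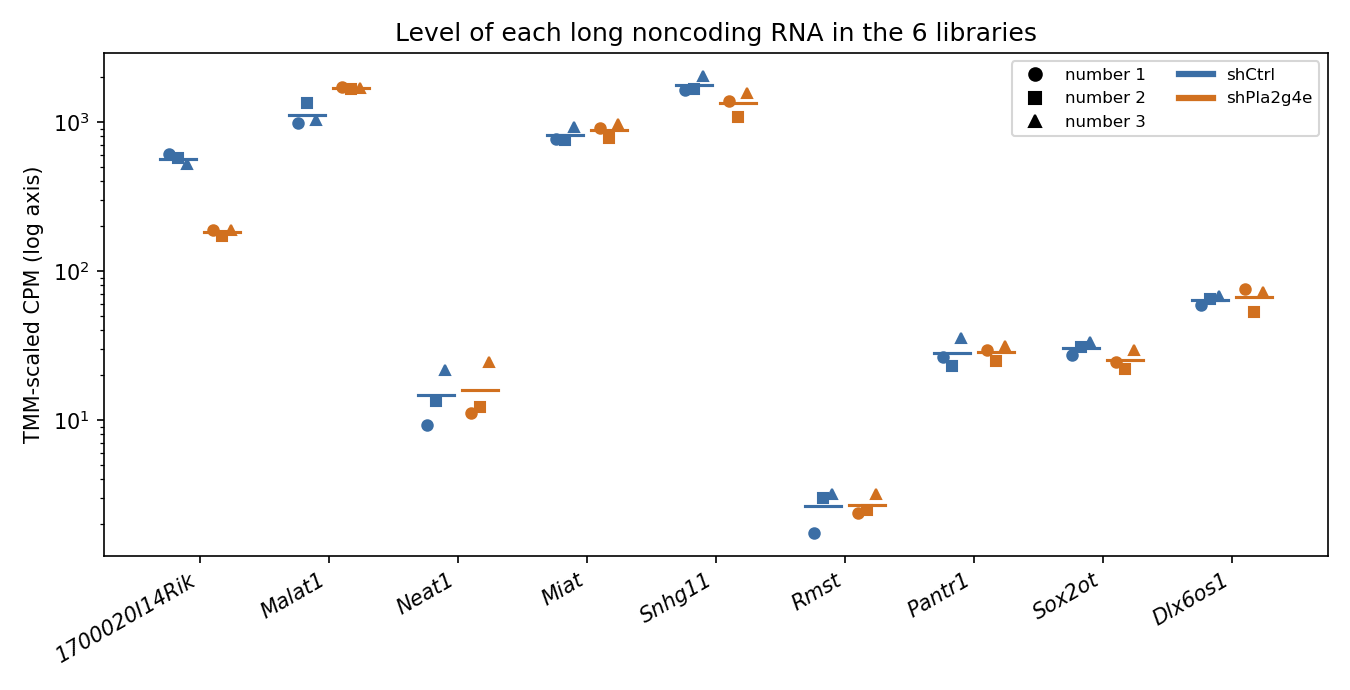
TMM-scaled CPM (log axis) of the 9 long noncoding RNAs in each library; circles, squares and triangles are the libraries numbered 1, 2 and 3, blue shCtrl and orange shPla2g4e, and bars are group means. The groups stand apart for 1700020I14Rik (566.4 against 182.7 CPM), Malat1 (1120 against 1698) and Snhg11 (1780 against 1337), and overlap for the other 6.

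Malat1, the abundant RNA of nuclear speckles, was higher in shPla2g4e. Its levels were 982.5, 1343 and 1035 CPM in shCtrl 1, 2 and 3 and 1726, 1672 and 1696 CPM in shPla2g4e 1, 2 and 3. Every shPla2g4e library was above every shCtrl library, and the spread was unequal: the SD was 17.4% of the mean in shCtrl and 1.57% in shPla2g4e. The means were 1120 ± 195 and 1698 ± 26.7 CPM (SD, n = 3), a log2 fold change of 0.60 (SE 0.103). Library 2 of shCtrl was the highest control, and the same-number log2 ratio was smallest there, at 0.32, against 0.81 and 0.71 for numbers 1 and 3. Without shCtrl library 2 the log2 fold change was 0.75, and without shCtrl library 1 it was 0.51. Malat1 is a single exon of 6983 bases on chromosome 19, from 5845718 to 5852700 on the minus strand. Gm37376, on the other strand, covers 6.49% of those bases. It lies wholly within the exon of Malat1, so reads there were counted for neither gene, and its 0 reads say nothing of its level.

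Neat1, transcribed next to Malat1 on the same strand (chromosome 19, 5874736 to 5895506), differed between the groups by less than its spread. It was counted at 9.266, 13.34 and 21.44 CPM in shCtrl 1, 2 and 3 and 11.04, 12.11 and 24.34 CPM in shPla2g4e 1, 2 and 3. The libraries numbered 3 were the highest in both groups, and the groups overlapped over nearly their whole range. The means were 14.68 ± 6.2 and 15.83 ± 7.39 CPM (SD, n = 3), and the log2 fold change of 0.09 (SE 0.282) was far within the spread. That value is not fixed in sign: it was -0.35 without shPla2g4e library 3 and reached 0.47 without another library.

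Miat, also known as Gomafu, is a nuclear RNA of neurons. It stood at 761.3, 754.6 and 929.3 CPM in shCtrl 1, 2 and 3 and at 909.7, 782.5 and 970.5 CPM in shPla2g4e 1, 2 and 3. The shPla2g4e library was above the shCtrl library of the same number each time, by 0.26, 0.05 and 0.06 on the log2 scale, but the groups overlapped. The means of 815.1 ± 99 and 887.5 ± 95.9 CPM (SD, n = 3) gave a log2 fold change of 0.12 (SE 0.1).

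Miat also had the largest overlap with a gene on the other strand. Counting was not strand-specific, and reads that fall on exons of more than 1 gene were left out by the counter's default setting. Gm26953 shares 24.3% of the 9293 exon bases of Miat (chromosome 5, 112361094 to 112377261, minus strand) from the other strand, and further genes share 7.74% on the same strand. Gm26953 itself had 16 to 49 reads per library, against 14993 to 21748 for Miat, and a log2 fold change of -0.02 (SE 0.36, adjusted p = 0.986 by edgeR). For Dlx6os1 the shared part on the other strand was 7.48%, from genes that lie within its exons and so could not be counted, and 6 members shared no exon base with the other strand.

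**Figure D2:**
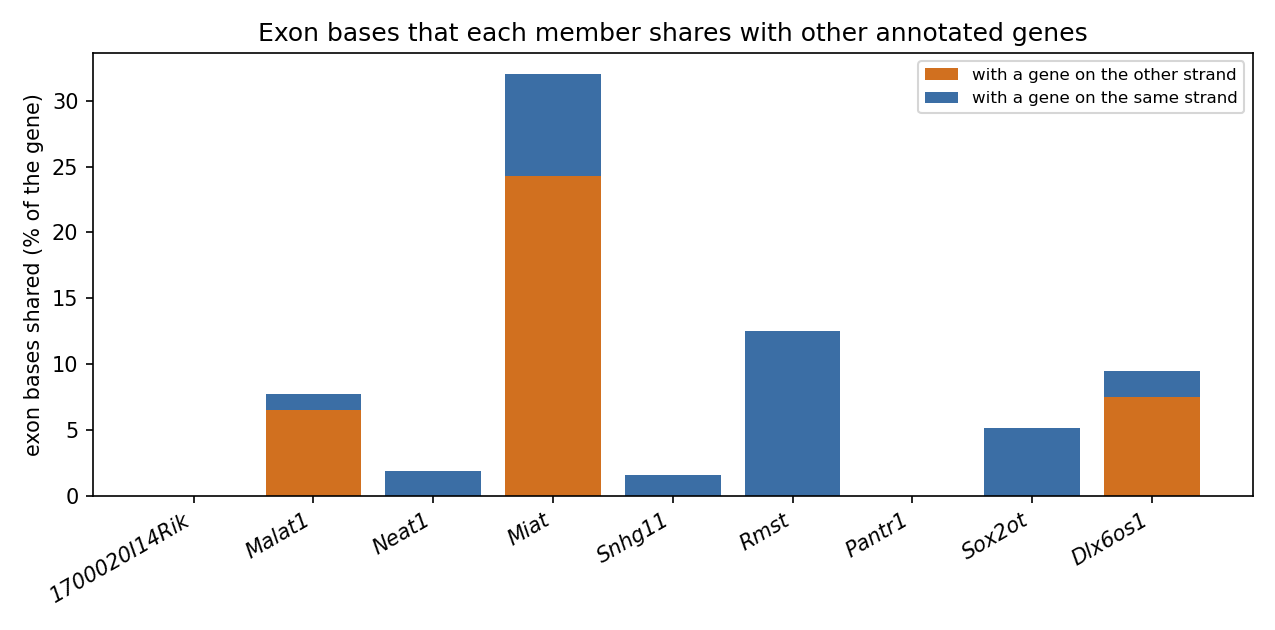
Exon bases of each member that also belong to another annotated gene, in percent of the member's exon bases; orange is a gene on the other strand and blue one on the same strand. Miat stands out with 24.3% on the other strand, while 1700020I14Rik and Pantr1 share none.

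Snhg11, a host gene of small nucleolar RNAs that is abundant in neurons, was lower in shPla2g4e. Its levels were 1641, 1664 and 2036 CPM in shCtrl 1, 2 and 3 and 1372, 1079 and 1561 CPM in shPla2g4e 1, 2 and 3. The highest shPla2g4e library lay just under the lowest shCtrl library. The means were 1780 ± 222 and 1337 ± 243 CPM (SD, n = 3), so that shPla2g4e held 75.1% of the control level (log2 fold change -0.41, SE 0.119). The same-number log2 ratios were -0.26, -0.62 and -0.38. It did not pass the threshold of 0.01 in the fit across all genes. With the library number as a block its log2 fold change was -0.42 (SE 0.0597) and it passed, as it did without shPla2g4e library 3, at -0.54, and at a threshold of 0.05. Snhg11 lies on chromosome 2 at 158217558 to 158228071 (plus strand) and has 8527 exon bases. GENCODE vM21 types it as protein coding and RefSeq as long noncoding.

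The 4 members tied to developmental transcription factors were not called, with or without the block, and the groups overlapped for each. Rmst, which is known to bind SOX2 in neural progenitors, was the rarest, with 36 to 72 reads per library. It stood at 1.746, 2.969 and 3.197 CPM in shCtrl 1, 2 and 3 and at 2.384, 2.497 and 3.199 CPM in shPla2g4e 1, 2 and 3, a log2 fold change of 0.02 (SE 0.28). The groups overlapped, with shCtrl 1 lowest, and at this depth a difference of that size was not detectable. Pantr1, which starts 83 bases from Pou3f3 on the opposite strand, stood at 26.29, 23.1 and 35.52 CPM in shCtrl and at 29.53, 24.83 and 31.42 CPM in shPla2g4e, in the order of library number. Its groups overlapped fully, with means of 28.3 ± 6.45 and 28.59 ± 3.4 CPM and a log2 fold change of 0.01 (SE 0.141). Pou3f3, a POU-domain factor of cortical neurons, was not called either (log2 fold change 0.10, SE 0.0769, adjusted p = 0.449 by edgeR).

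Sox2ot, whose span on chromosome 3 holds Sox2 without sharing an exon base, stood at 27.31, 30.75 and 33.34 CPM in shCtrl 1, 2 and 3 and at 24.3, 21.87 and 29.54 CPM in shPla2g4e 1, 2 and 3. It was lower in shPla2g4e for each number, by log2 ratios of -0.17, -0.49 and -0.17, but shPla2g4e 3 lay above shCtrl 1. The log2 fold change was -0.28 (SE 0.12), with means of 30.47 ± 3.03 and 25.24 ± 3.92 CPM. Sox2, the progenitor factor, had a log2 fold change of -0.12 (SE 0.111, adjusted p = 0.576 by edgeR).

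Dlx6os1, also known as Evf2, is an RNA of the Dlx5 and Dlx6 locus of GABAergic neurons. It stood at 58.55, 64.27 and 67.31 CPM in shCtrl 1, 2 and 3 and at 75, 53.08 and 71.64 CPM in shPla2g4e 1, 2 and 3. Both the lowest and the highest value were in shPla2g4e, and the log2 fold change was 0.07 (SE 0.113). Its neighbour Dlx5 had -0.27 (SE 0.184, adjusted p = 0.396 by edgeR) and Dlx6, inside its span on the other strand, 0.11 (SE 0.218, adjusted p = 0.808). Of the nearest tested protein-coding genes around all members, 2 were called with the block and not without it. Of all genes, 15.5% were called with the block. The 2 were Atp11b, 1071487 bases from Sox2ot (0.21, adjusted p = 0.132 by edgeR and 0.00794 with the block), and Sem1, 241526 bases from Dlx6os1 (0.31, adjusted p = 0.0281 and 0.00416 with the block).

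**Figure D3:**
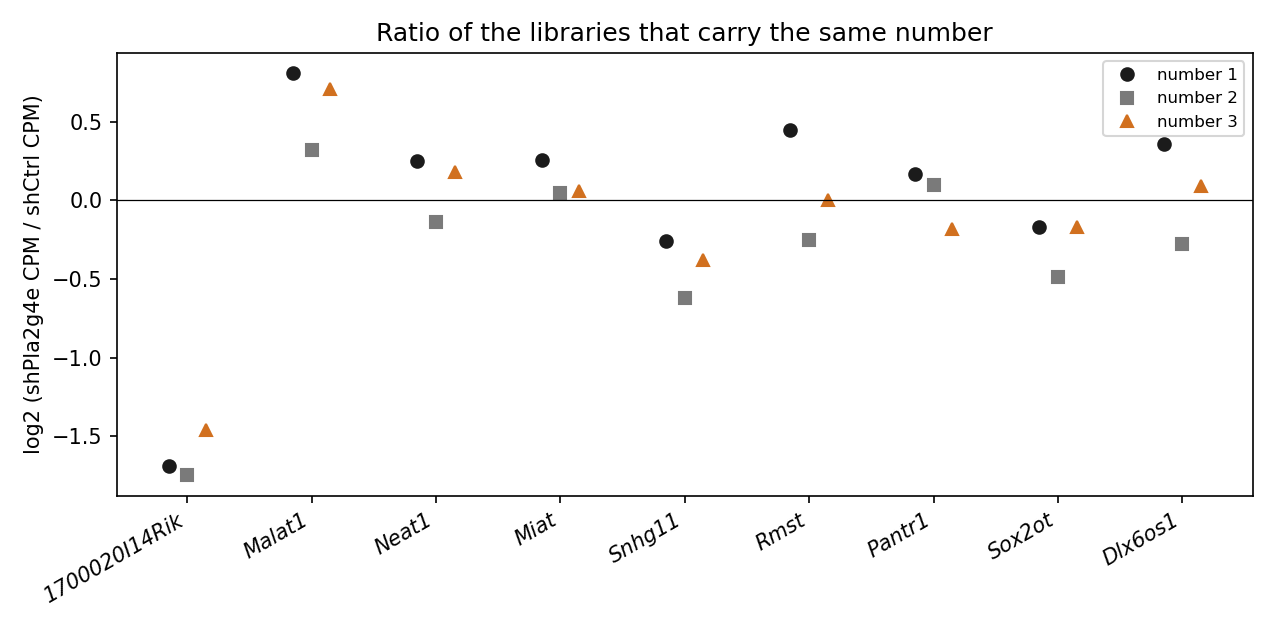
log2 ratio of shPla2g4e CPM over shCtrl CPM for libraries with the same number, 1 point per number (circle 1, square 2, triangle 3). All 3 points are below 0 for 1700020I14Rik (-1.75 to -1.46), Snhg11 and Sox2ot and above 0 for Malat1 (0.32 to 0.81) and Miat, while Neat1, Pantr1 and Dlx6os1 have points on both sides and Rmst has 1 above, 1 below and 1 at 0.00.

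In the fit across all genes at an adjusted p of 0.01, 2 of the 9 members were called, 1700020I14Rik lower and Malat1 higher, where 6.49% of all 21876 genes were called, 4% lower and 2.48% higher. With the library number as a block 3 members were called, Snhg11 in addition, where 15.5% of all genes were. The same 3 passed at a threshold of 0.05, where 12.9% of all genes did. The groups of libraries did not overlap for the same 3 members, and for 30% of all genes. Since the members were chosen with these values known, nothing is read from these counts. The median log2 fold change was 0.02 over the members and 0.03 over all genes. Scaling by library size alone moved the median of all genes to 0.10 and the share of called genes that were lower from 61.7% to 43.3%, and 1700020I14Rik and Malat1 stayed called under it.

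The other long noncoding genes give the level of the class. Of 4349 tested, 70 (1.61%) were called, 10 lower and 60 higher, and 184 (4.23%) with the block. Many of them have few reads. Of the 208 whose mean log2 CPM was 3 or more, 15 (7.21%) were called, 4 of them lower and 11 higher, and the median was 0.10 on the log2 scale. With the block 53 of the 208 (25.5%) were called.

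**Figure D4:**
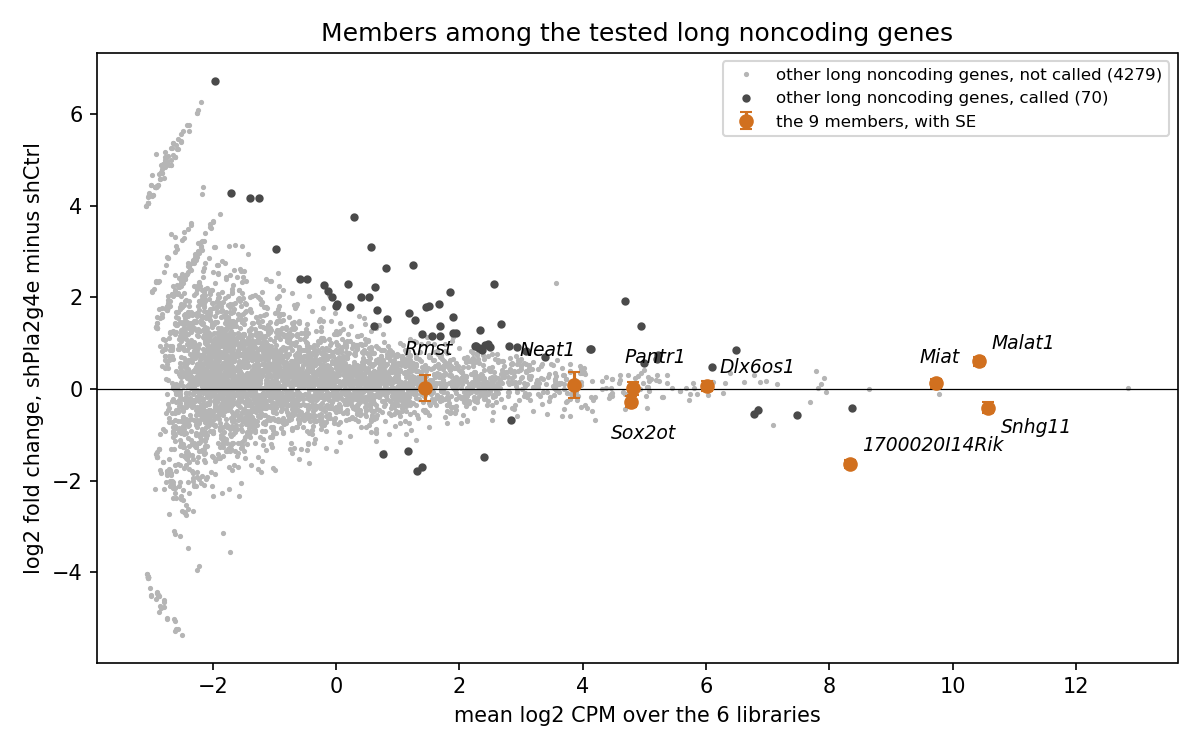
log2 fold change (shPla2g4e minus shCtrl) against mean log2 CPM for the 4349 other tested long noncoding genes, grey where not called and dark where called (70), and for the 9 members in orange with their standard errors. 1700020I14Rik lies lowest among those whose mean log2 CPM is 3 or more, at -1.63, and Malat1 lies above 0 at 0.60.

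Levels of the members were compared per length, as CPM per kb of exon. In shCtrl the order was Snhg11 at 209 ± 26 (SD, n = 3), Malat1 at 160 ± 27.9, Miat at 87.7 ± 10.7 and 1700020I14Rik at 68.2 ± 5.41, followed by Dlx6os1 at 12.3 ± 0.859 and Pantr1 at 6.35 ± 1.45. Sox2ot (2.63 ± 0.261), Neat1 (0.707 ± 0.298) and Rmst (0.355 ± 0.105) closed it. By this length no neighbouring pair overlapped in its 3 libraries, although the lowest Snhg11 and the highest Malat1 library both came to 192. Reads on shared exon bases were not counted, and over the exon bases shared with no other gene the order was the same but 2 pairs overlapped. Snhg11 then stood at 212 ± 26.5 (195 to 243) and Malat1 at 174 ± 30.2 (152 to 208), and Neat1 at 0.72 ± 0.304 and Rmst at 0.406 ± 0.12, so that neither pair differed beyond its spread. Miat stood at 126 ± 15.3 by that length, apart from both neighbours. In shPla2g4e, Malat1 (243 ± 3.82 CPM per kb) came before Snhg11 (157 ± 28.4), 1700020I14Rik stood at 22 ± 1.23, and the remaining order was as in shCtrl. Malat1 and, in part, Neat1 are known to end without a regular poly(A) tail, and how much of them poly(A) libraries capture was not tested. Both lengths used above join the exons of all annotated transcripts of a gene. The full exon length was 11594 bases in Sox2ot and 7423 in Rmst, against 3486 and 2891 in their longest GENCODE vM21 transcripts. Levels per kb of transcript were not computed, and the order of the lower members may differ by them.

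Of 6 proteins that Neat1 or Miat is known to work with, 1 was called. Pspc1, a core paraspeckle protein, fell to 37.42 ± 0.601 CPM from 67.72 ± 2.8 CPM in shCtrl (-0.86 on the log2 scale, SE 0.0814, adjusted p = 5.81e-06 by edgeR). Its partners Sfpq and Nono stood at log2 fold changes of -0.25 (SE 0.0797, adjusted p = 0.0488) and -0.11 (SE 0.075, adjusted p = 0.391), and Sfpq was called lower with the block (adjusted p = 0.00161). Of the regulators known to bind Miat, Qk (-0.18, adjusted p = 0.23) and Sf1 (-0.03, adjusted p = 0.89) were not called, and Celf3 (0.27, adjusted p = 0.0745) was called higher with the block (adjusted p = 0.00105).

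For the gene lists below, the counts stand beside those of all genes whose mean log2 CPM was 3 or more, of which 10.9% were called and 26% with the block, with a median of -0.02. Not every listed gene reached that level. It was reached by 19 of 25 other named long noncoding RNAs, 11 of 15 small nucleolar RNA host genes and 17 of 20 GABAergic markers. So it was by 13 of 18 progenitor genes, 10 of 12 astrocyte and 10 of 11 oligodendrocyte lineage markers. Of all 21876 tested genes, 6.49% were called and 15.5% with the block. Among 38 paraspeckle proteins, all above that level, 3 (7.89%) fell and 0 rose: Pspc1, Rbm3 (log2 fold change -0.65, adjusted p = 0.00034 by edgeR), a cold-induced RNA-binding protein, and Hnrnpul1 (-0.38, adjusted p = 0.00461). With the block 9 (23.7%) fell, and the list's median was -0.09. Of all genes at that level, 7.61% were called lower and 16.7% with the block. At an unadjusted p under 0.05, 1 of the 38 was higher. Of 34 nuclear speckle and splicing proteins, 1 fell, Rbfox3 (-0.41, adjusted p = 0.00477), the splicing regulator known as NeuN, and 0 rose, with a median of -0.03. On leaving out 1 library, 0 were called in 5 of 6 cases and 2 without shCtrl library 3. With the block 5 fell and 2 rose, and 2 were higher at an unadjusted p under 0.05.

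Of 25 other named long noncoding RNAs, 1 fell and 1 rose. Tug1, a widely expressed RNA, fell to 91.32 ± 2.33 CPM from 132.7 ± 1.49 CPM in shCtrl (-0.54 on the log2 scale, adjusted p = 0.000168 by edgeR), and Mir124-2hg, host of a neuronal microRNA, rose from 58.17 ± 6.2 to 80.68 ± 9.79 CPM (0.47, adjusted p = 0.006). With the block 2 fell and 4 rose. Without shPla2g4e library 3, 5 were called, and 1 without shCtrl library 1, 2 or 3 or without shPla2g4e library 1. Of 15 other small nucleolar RNA host genes, edgeR called 0, limma after voom 0 and DESeq2 1, while 1 was lower and 3 were higher at an unadjusted p under 0.05 and their median was 0.16. With the block 1 fell and 1 rose, and without shPla2g4e library 3 edgeR called 1. Snhg14 of that list stood at -0.41 (adjusted p = 0.0312 by edgeR, 5.02e-06 with the block) and Snhg15 at 0.45 (adjusted p = 0.0383, 0.00325 with the block). Both were named after their values were seen. Of the 15 host genes, 5 had a log2 fold change below 0 and 10 above. Both lists, like those below, were written with earlier results of these data known.

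The cell types in which members are known to be expressed are described by marker lists. In bulk cultures, fewer cells of a type and less RNA per cell cannot be told apart. Of 20 GABAergic neuron markers, the cell type of Dlx6os1, 5 fell and 2 rose, among them Npy (1.26, adjusted p = 1.3e-06 by edgeR) and Lhx6 (-0.93, adjusted p = 9.13e-05). With the block 8 fell and 3 rose, and the median was -0.23. Their summed level was 1488 to 1605 CPM in shCtrl and 1243 to 1397 CPM in shPla2g4e, while Dlx6os1 lay at 58.55 to 67.31 and 53.08 to 75 CPM. Of 18 neural progenitor genes, the setting of Sox2ot, Rmst and Pantr1, Top2a fell (14.22 ± 4.17 to 7.155 ± 2.17 CPM, adjusted p = 0.00613) and Neurog2 rose (1.04, adjusted p = 0.00168), the median was -0.01, and the summed levels overlapped (698.2 to 860.3 against 657.5 to 924.5 CPM). Both calls were lost without shPla2g4e library 1, and 1 gene was called without shCtrl library 2 or 3 or without shPla2g4e library 2.

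Neurons, the labelled cell type, were represented by all 14 markers tested. Of these, 5 fell and 2 rose, with Tubb3 (-1.68, adjusted p = 3.68e-08 by edgeR), Dcx (-0.51, adjusted p = 0.000731) and Nefm (0.68, adjusted p = 0.000794) first by p. With the block 7 fell and 3 rose, while 2 of the 14 were called without shCtrl library 2. The median was -0.24, and their summed level was 6884 to 7615 CPM in shCtrl and 6074 to 6598 CPM in shPla2g4e. Of 12 astrocyte markers 3 fell, Aqp4 (-1.19, adjusted p = 0.000853), Gja1 (-0.66, adjusted p = 0.00242) and Slc1a2 (-0.50, adjusted p = 0.00778), and 0 rose, with 1 higher at an unadjusted p under 0.05. With the block 8 fell and 1 rose, and the median was -0.32. Without shPla2g4e library 1 or 2, 1 marker was called, and without shPla2g4e library 3, 7 were. Their summed level was 3065 to 3915 CPM in shCtrl and 2116 to 3351 CPM in shPla2g4e. Both sums had lower means in shPla2g4e, as 1700020I14Rik and Snhg11 had. Their part in the members' values was not tested.

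Oligodendrocyte lineage and microglia markers had 0 calls. Of 11 oligodendrocyte lineage markers, edgeR, limma after voom and DESeq2 each called 0, and 1 was lower at an unadjusted p under 0.05, with a median of 0.16 and a summed level of 583.4 to 660.9 against 593.3 to 738.3 CPM. Of 9 microglia markers all 3 tools called 0, 3 were lower and 1 was higher at an unadjusted p under 0.05, their median was -0.70, 1 of them reached a mean log2 CPM of 3, and their sum was low in both groups, at 23.3 to 34.41 and 24.97 to 26.45 CPM, with P2ry12 under 1 CPM in all libraries. With the block each of these lists had 1 gene called lower, and without shPla2g4e library 3 each had 1 gene called. Of 12 immediate early genes, which neuronal activity induces, 4 rose, with Fos (0.53, adjusted p = 0.000711 by edgeR), Fosb (0.88, adjusted p = 0.000749) and Jun (0.67, adjusted p = 0.00133) first by p, and 0 fell, with 3 lower at an unadjusted p under 0.05. With the block 3 fell and 5 rose, and the median was 0.12. Fos stood at 68.74 to 70.68 CPM in shCtrl and 89.18 to 108.8 CPM in shPla2g4e. Neat1 ranged from 9.266 to 24.34 CPM over all 6 libraries (log2 fold change 0.09, SE 0.282). That spread is too wide to tell whether Neat1 changed as Fos did, and a link between them was not tested.

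For 8 of the members the gene with the most similar course over the 6 libraries was found among 10900 genes whose mean log2 CPM was 3 or more, by Pearson r of log2 CPM. With so few libraries and so many candidates high values arise easily, and they are given as a description. The closest were Ptprm for 1700020I14Rik (r = 0.999), Armc8 for Malat1 (0.998), Vps29 for Snhg11 (0.996) and 0610030E20Rik for Miat (0.994). Rmst was closest to Rabggta (0.993), Neat1 to Hsdl2 (0.992), Dlx6os1 to Gria4 (0.984) and Pantr1 to Dvl2 (0.979). Pearson r takes no account of the size of a change. Ptprm, a receptor tyrosine phosphatase, had a log2 fold change of -0.76, less than that of 1700020I14Rik. Armc8 had 0.07, against 0.60 for Malat1, and Vps29 had -0.17, against -0.41 for Snhg11.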

How the data were processed

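The authors deposited raw counts of reads per gene, made with STAR 2.7.0d and featureCounts 1.6.0 from TruSeq Stranded mRNA libraries, 1 table per library. Per the file headers, counting was without strand and used a GENCODE vM28 annotation, and the submitters' processing notes name GRCm39, whereas the methods of the study name mm10 and another release. Coordinates of genes are those of the tables (GRCm39) and those of sequences are from GENCODE vM21 (GRCm38). No coordinate was converted. Symbols and types came from vM21 for 52081 of 55357 genes by identifier.

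Counts were tested with edgeR 4.0.16 (TMM, quasi-likelihood, Benjamini-Hochberg over 21876 genes, threshold 0.01, at least 6 reads in at least 1 library), in R 4.3.3. limma 3.58.1 after voom (the test of the study), DESeq2 1.42.0, other scaling and filters, 0.05 as the threshold and fits without each library in turn were alternatives. The script was tested on simulated data. The numbers in the sample titles were taken to pair the libraries, since deviations from the group means correlated for each same-number pair (r = 0.392, 0.189 and 0.461 over 10908 genes); the labels do not say what the number marks. The fit reported has no block, since the methods of the study name none.

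The members and gene lists were chosen with earlier results of these data known. Genes named beside the members were the target, genes over or next to a member (values where called or where they share its exons or locus), known partners, the 3 called genes with the smallest p in each list, and the gene most like each member. A few genes that this rule names are not reported here. Norad, Cdr1os, Snhg4, Snhg7 and Snhg16 were not matched by symbol, and Oip5os1 is the member 1700020I14Rik. CPM per kb used the exon length given in the tables. Depth was 17054717 to 23570180 reads per library, and Rmst had the fewest reads of the members, 36 to 72.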

Additional observations from a re-analysis of the deposited data

How the results depend on the processing

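1700020I14Rik was called lower and Malat1 higher in all 13 alternatives, with log2 fold changes of -1.69 to -1.56 and 0.51 to 0.75. Snhg11 stayed below 0 (-0.54 to -0.28) and passed the threshold in 4 of the 13: DESeq2, no filter, the library number as a block, and without shPla2g4e library 3. It also passed, without the block, at a threshold of 0.05. Neat1 reversed to -0.35 without shPla2g4e library 3 (range over left-out libraries -0.35 to 0.47), and Rmst, Pantr1 and Dlx6os1, whose values are near 0, were below 0 in 2, 4 and 1 of their alternatives. Miat (0.05 to 0.23) and Sox2ot (-0.40 to -0.18) kept their sign and were never called. The count of all genes called, 1419, was 3395 with the block, which pairs the libraries by number, 2813 at a threshold of 0.05 and 695 to 1613 with 1 library left out (928 and 695 without shCtrl library 1 and 2, 854 and 931 without shPla2g4e library 1 and 2). The count of other long noncoding genes, 70, was 123 with no filter, 184 with the block, 183 at 0.05 and 33 to 72 with 1 library left out, the lowest values without shCtrl library 2 (33), shPla2g4e library 1 (37) and shCtrl library 1 (46). The 28 called genes of the lists became 45 with no filter, 66 with the block, 51 at 0.05 and 18 to 37 with 1 library left out, 18 being without shCtrl library 2. The causes were not tested. The block changed the call of Snhg11 and of no other member. Without division by exon length, Sox2ot came before Pantr1 (30.47 against 28.3 CPM). The standard errors of Neat1 (0.282) and Rmst (0.28) were the widest of the members, and with the block they were 0.118 and 0.257.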
